A study of Mus musculus with 6 samples.

Results

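The authors' list of 6502 genomic regions holds intervals of 2 main widths, narrow (about 140 bases) and wide (about 450 bases), and 323 of the narrow ones are centred within 2.5 kb of either end of a protein-coding gene. They were chosen by width and position alone, from 3210 narrow regions (10.1%), and they lie at the ends of 369 genes. The series compared naive with inflamed mouse prostate, in cells sorted as basal stem cells. The measurement was ATAC-seq, in which a transposase cuts and tags open DNA, on 3 libraries from naive and 3 from inflamed prostates. Inflamed prostates came from POET3 mice, which express ovalbumin in the prostate, taken 7 days after transfer of pre-activated OT-1 splenocytes. The labels give the naive libraries the genotype WT and the treatment control, and the inflamed ones the genotype POET3, whereas the protocol names POET3 mice for both, so genotype and inflammation cannot be told apart. The sort kept cells that lacked the leukocyte marker CD45 and the endothelial marker CD31 and carried Sca-1 and CD49f.

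The file used here gives positions only. It holds no signal, direction, fold or p-value for a region, and no value for a library. Its name and the tools named for the series are why it was read as a list of regions that differ between naive and inflamed cells, and for no region is it known which group was more open. Without values for single libraries there is no replicate error, and how deeply each library was sequenced is unknown. The sort could not be checked against Krt5 or Trp63, since no level of any gene was measured. Of 3291 wide regions, 657 lie at gene ends, and these serve as the comparison. What the widths stand for is not stated in the sources used here.

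A gene start is where RNA polymerase begins to copy a gene, and the promoter around it is usually the most open stretch of a gene in any cell. Promoters of genes that nearly every cell uses are mostly rich in CpG, the base pair step C followed by G, while promoters of genes used in single tissues or induced by signals are more often poor in it. The 3′ end, where transcription stops, is less often open. In stratified and glandular epithelium, AP-1 and grainyhead factors bind many regulatory elements, and NF-kB drives genes induced by interleukin 1 and tumour necrosis factor.

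The sequences below are examples picked for a motif match or for few or many CpG. All lie within a narrow region and upstream of a start in the RefSeq promoter table, read 5′ to 3′ on the gene's strand from RefSeq promoter sequences of build GRCm38.p6 (mm10). The first are 4 regions that hold a match to an AP-1, grainyhead or NF-kB motif. Capitals mark the match: TGANTCA for AP-1 and AACCNGTT for grainyhead on either strand in Il1rn and Actn4, and the NF-kB motif in Tnip3 and Pglyrp1. Il1rn (chr2:24336696-24336838, plus strand) encodes the interleukin 1 receptor antagonist, which blocks the receptor, and Actn4 (chr7:28962405-28962547, minus strand) an actin crosslinker. Tnip3 (chr6:65590214-65590356, plus strand) encodes a partner of the NF-kB inhibitor A20, and Pglyrp1 (chr7:18884543-18884685, plus strand) a peptidoglycan recognition protein that acts against bacteria.
Il1rn: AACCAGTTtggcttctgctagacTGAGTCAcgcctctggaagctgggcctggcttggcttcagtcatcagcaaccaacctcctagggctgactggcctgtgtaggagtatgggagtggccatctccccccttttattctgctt
Actn4: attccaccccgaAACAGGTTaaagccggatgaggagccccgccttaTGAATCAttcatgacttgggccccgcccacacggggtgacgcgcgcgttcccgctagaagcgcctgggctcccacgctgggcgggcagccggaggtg
Tnip3: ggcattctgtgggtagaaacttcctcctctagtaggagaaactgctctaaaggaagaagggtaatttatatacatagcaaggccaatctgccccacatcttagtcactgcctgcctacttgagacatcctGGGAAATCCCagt
Pglyrp1: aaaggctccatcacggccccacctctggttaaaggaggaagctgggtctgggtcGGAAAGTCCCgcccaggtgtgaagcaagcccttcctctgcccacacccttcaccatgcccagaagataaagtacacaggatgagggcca

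The AP-1 match of Il1rn begins 141 bases before the start of the gene span and that of Actn4 150 bases before it (169 before the start in the promoter table). The NF-kB match begins 54 bases before the start of Tnip3 and 93 bases before that of Pglyrp1. The next set contrasts CpG content, with every CpG in capitals. Oit1 (chr14:8378846-8378988, minus strand), Lpar5, a receptor for lysophosphatidic acid (chr6:125067713-125067855, plus strand, running past the start of the gene span but not the start in the promoter table), and Cldn3, a tight junction claudin (chr5:134986091-134986213, plus strand, cut at the gene's start), hold few. Rpl27a (chr7:109519028-109519170, plus strand) and Rpl13a (chr7:45128828-45128970, minus strand), both ribosomal protein genes, Eif1, a translation initiation factor gene (chr11:100319785-100319927, plus strand), and Sumo2, which encodes a protein tag (chr11:115536268-115536410, minus strand), hold many.
Oit1: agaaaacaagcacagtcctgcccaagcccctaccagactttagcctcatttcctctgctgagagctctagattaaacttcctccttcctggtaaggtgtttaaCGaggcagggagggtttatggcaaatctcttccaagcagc
Lpar5: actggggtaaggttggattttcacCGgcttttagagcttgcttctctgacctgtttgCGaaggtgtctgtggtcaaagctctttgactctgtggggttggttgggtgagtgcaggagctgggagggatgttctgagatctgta
Cldn3: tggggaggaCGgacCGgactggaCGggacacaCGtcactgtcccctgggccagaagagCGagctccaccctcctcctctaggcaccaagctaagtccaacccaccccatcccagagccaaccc
Rpl27a: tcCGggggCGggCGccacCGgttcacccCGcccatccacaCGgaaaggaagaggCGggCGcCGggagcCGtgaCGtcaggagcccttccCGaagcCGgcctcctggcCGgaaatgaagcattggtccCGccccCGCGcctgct
Rpl13a: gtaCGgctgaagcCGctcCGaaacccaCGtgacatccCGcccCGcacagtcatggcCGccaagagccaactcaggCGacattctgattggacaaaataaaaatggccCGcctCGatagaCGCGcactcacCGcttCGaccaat
Eif1: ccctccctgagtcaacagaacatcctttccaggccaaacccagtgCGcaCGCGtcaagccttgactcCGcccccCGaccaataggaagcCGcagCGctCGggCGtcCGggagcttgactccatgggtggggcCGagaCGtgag
Sumo2: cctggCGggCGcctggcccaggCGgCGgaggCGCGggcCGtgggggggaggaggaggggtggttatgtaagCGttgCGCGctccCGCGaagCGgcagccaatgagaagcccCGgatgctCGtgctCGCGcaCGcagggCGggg

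Oit1 has 1 CpG in its region, Lpar5 has 2 and Cldn3 has 5 in 123 bases. Eif1 has 12, Rpl13a 14, Rpl27a 17 and Sumo2 19.

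The regions at gene ends were shared between starts and 3′ ends. Strand was known for the nearest gene of 252 of the 323 regions. The nearest end was a gene start for 158 of these (62.7%, exact 95% interval 56.4 to 68.7) and a 3′ end for 94. Of the wide regions at gene ends with known strand, 452 of 508 (89.0%) were nearest to a start. The difference of -26.3 percentage points passed Fisher's exact test (two-sided, odds ratio 0.209, 95% interval 0.140 to 0.309, adjusted p = 5.2e-16 over the 5 shares compared). Regions are not replicates of a condition, and the intervals cover counting error only. The narrow regions lay in more gene-dense surroundings, and among regions with 10 or more genes within 500 kb the shares were 70.2% and 84.1% (Fisher's exact test, adjusted p = 0.0012).

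Around starts the narrow regions formed a narrow peak, and around 3′ ends they did not. Of the 158 nearest to a start, 77 were centred within 250 bases of it, 11 at 250 to 500 bases and 14 at 2000 to 2500 bases. Of the 94 nearest to a 3′ end, 12 were within 250 bases, 11 at 250 to 500 and 14 at 2000 to 2500. Per kb of distance, that is 308 regions next to a start and 48 next to a 3′ end. Between 2.5 and 5 kb the same counts were 26.4 and 35.2 per kb. The median distance was 272.5 bases to a start and 1134 bases to a 3′ end.

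**Figure D1:**
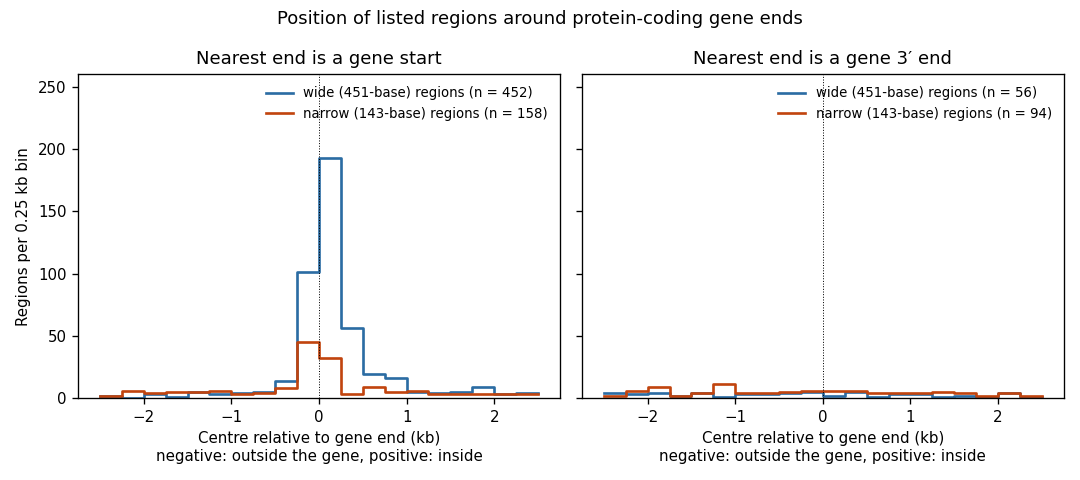
Number of listed regions per 0.25 kb bin by the position of their centre relative to the nearest protein-coding gene end, for gene starts (left) and 3′ ends (right), with narrow regions in red and wide regions in blue. The 158 narrow regions at starts peak just outside the gene, the 452 wide regions peak just inside it, and neither width peaks at 3′ ends.

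The narrow regions sat on the outer side of gene ends more often than the wide regions. The centre was inside the gene for 140 of 323 (43.3%), against 436 of 657 (66.4%) of the wide regions (Fisher's exact test, odds ratio 0.388, 95% interval 0.292 to 0.514, adjusted p = 2.5e-11). At starts alone the shares were 44.3% and 69.5% (Fisher's exact test, adjusted p = 7.1e-08), so the difference was as large without the 3′ ends. Within 250 bases of a start, 45 of 77 narrow regions (58.4%, exact 95% interval 46.6 to 69.6) lay upstream, with a median position 28 bases before the start, and 101 of 294 wide regions (34.4%, 28.9 to 40.1) did, with a median position 39 bases after it.

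A gene end lay within 71 bases of the centre, that is inside the region, for 49 of 323 (15.2%). With the same narrow stretch around the centre, the share of the wide regions was 26.6% (Fisher's exact test, odds ratio 0.493, adjusted p = 8.1e-05). Within 1 kb of gene ends alone the shares were 27.7% and 31.4% and the difference no longer passed (Fisher's exact test, adjusted p = 0.40). Ends of 2 or more genes were in reach for 59 of 323 (18.3%) against 12.2% of the wide regions (Fisher's exact test, adjusted p = 0.011). This call was lost with 1 region per 1 Mb (12.7% and 12%, adjusted p = 0.81) and among regions with 10 or more genes within 500 kb (21.1% and 19%, adjusted p = 0.59).

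**Figure D2:**
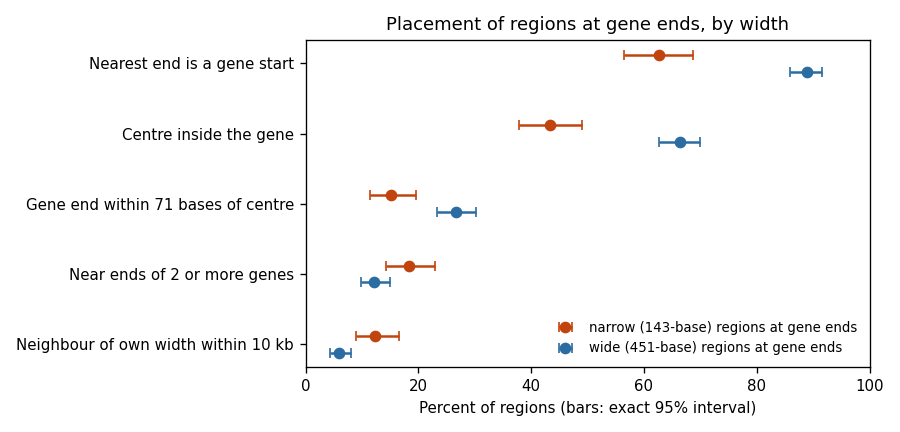
Percent of regions at gene ends with each of 5 features, for narrow regions (red) and wide regions (blue), with exact 95% intervals. The narrow regions lie lower for starts, for centres inside the gene and for ends inside the region, and higher for the other 2 features.

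The regions across gene starts lay at genes of varied function. In all, 46 gene starts lay inside a narrow region. The 20 closest to a centre, predicted genes aside, were those of Mief2, Rpl23, Otub1, Gosr1, C3, Setd1a, Mfsd5, Ercc2, Chtf8, Bahcc1, Ssh2, Slc39a3, Dbnl, Cd200r3, Szrd1, Ccdc87, Scamp4, Adat3, Sbno1 and Aunip. Mief2, a mitochondrial dynamics factor, started at the very centre of its region on chromosome 11 (60728327 to 60728469). Rpl23, a protein of the large ribosomal subunit, started 1 base from the centre (chromosome 11, 97782367 to 97782509). Ercc2 encodes a helicase of the repair and transcription factor TFIIH, Setd1a a histone methyltransferase of active promoters and Gosr1 a Golgi SNARE. C3, the central complement component, and Cd200r3, a receptor of the CD200 family, are the members of the 20 best known from immunity, and their starts were 8 and 16 bases from the centre.

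Several genes of protein synthesis and transcription had a narrow region. Of all 21887 protein-coding genes, 369 (1.69%) had a narrow region within 2.5 kb of an end. With strand known (17492 genes), 1.06% had one at the start and 0.686% at the 3′ end, against 2.87% and 0.492% for wide regions. Among 52 genes of the large ribosomal subunit, 4 had one (7.69%): Rpl13a, Rpl23, Rpl26 and Rpl27a, each within 154 bases of the start. None of 31 small-subunit genes had one. Among RNA polymerase II subunit genes, 2 of 13 had one, Polr2g 4 bases and Polr2e 92 bases outside the gene. Of the 56 genes named as translation initiation factors there were 3, Eif1, Eif5a and Eif3f, the last at its 3′ end. No wide region lay at an end of any large-subunit, polymerase II or initiation factor gene counted here. Of all protein-coding genes, 3.34% had a wide region at an end, so few would be looked for in families of this size. Among the other families counted by symbol, 9 of 354 Slc transporter genes (2.54%) had a narrow and 13 a wide region. None of 397 Zfp genes had a narrow and 7 a wide one. Of 75 mitochondrial ribosomal protein genes, 3 (4%) had a narrow and 1 a wide region, and of 37 Kelch-like genes 3 (8.11%) and 5. None of 1110 olfactory receptor genes had either. These families, and the keratins, were picked after the positions were seen, so their counts are descriptions.

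Of 53 keratin genes, 6 (11.3%) had a narrow region at an end and none had a wide one. Among all protein-coding genes these shares were 1.69% and 3.34%. Krt6a and Krt16, keratins of activated and wounded epithelium, had one 116 and 310 bases outside the gene. Krt17, a basal and stress keratin, had one 1342 bases outside, and Krt19, a simple-epithelium keratin, one 134 bases outside. The other 2 were Krt75 and Krt88, at 1810 and 1119 bases. Krt16 and Krt17 are neighbours on chromosome 11, and their regions lie 5.66 kb apart. The strand of Krt6a, Krt16, Krt17, Krt19 and Krt88 was not in the table used, so start and 3′ end were not told apart there.

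Some of the 16 genes with more than 1 region are expressed in epithelia. Pglyrp3, which encodes a peptidoglycan recognition protein of epithelia, had 3: one 93 bases outside the left end of its span (chromosome 3, 92012313 to 92012455), another 1122 bases inside and the third 1426 bases beyond its right end. Cdsn, which encodes corneodesmosin, an adhesion protein of cornified epithelium, had 2 at its 3′ end, one 102 bases inside and the other 272 bases outside. Prss22, a serine protease gene of epithelia, had 2 inside the gene, 157 and 2120 bases from the same end. Of the list of 35 epithelial junction genes, 2 had a narrow region: Cldn3, with its centre 52 bases before the start, and Evpl, which encodes envoplakin of the cornified envelope, at 1631 bases. More genes of that list had a wide region, 5 of 35 (14.3%) against 2 of 35 (5.71%). Of all protein-coding genes, 3.34% had a wide and 1.69% a narrow region.

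Of 25 genes listed as basal markers, 3 (12%, exact 95% interval 2.55 to 31.2) had a region: Krt6a, Krt17 and Tspan1, the last 1655 bases inside its start. Whether each listed gene marks basal cells here was not measured. Of 25 luminal markers, 2 had one (8%, exact 95% interval 0.984 to 26.0), Cldn3 and Krt19. For wide regions the counts were 1 and 0. The share of all protein-coding genes was 1.69% for narrow and 3.34% for wide regions. The intervals of the basal and the luminal share overlap. Both lists were written with earlier results of these data known, so these shares are descriptions.

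Immune and inflammatory genes with a narrow region were found in several lists. In the IL-1 list, 1 of 24 genes had a region, Il1rn, centred 93 bases before its start. Of 30 NF-kB genes there were 2: Relb, a subunit, with a region 731 bases inside one end, and Map3k7, the kinase TAK1, with one 1876 bases beyond its 3′ end. Of 30 chemokine and cytokine genes there were 2: Ccl20, which attracts CCR6-bearing cells, with a region 961 bases beyond its 3′ end, and Ccl2, a monocyte chemokine, at 2384 bases. Of 29 interferon response genes, 3 (10.3%, exact 95% interval 2.19 to 27.4) had one. Ido1, which breaks down tryptophan, had it 185 bases outside the gene, and the guanylate-binding protein genes Gbp3 and Gbp5 had one 215 bases before the start and 2315 bases inside it. Of 20 antigen presentation genes 1 had one, Cd74, the class II invariant chain, 132 bases outside the gene. The shares of these 5 lists were 4.17%, 6.67%, 6.67%, 10.3% and 5%, against 1.69% of all protein-coding genes. Apart from the interferon list, the exact 95% intervals reached below 1.69%, with lower limits of 0.105%, 0.818%, 0.818% and 0.127%. The lists were written with earlier results of these data known, so these shares are descriptions. For wide regions the counts were 2, 1, 2, 2 and 0, and the share of all protein-coding genes was 3.34%.

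Beyond the lists, further genes of host defence had a region close to an end, and these were picked after the positions were seen. Zbp1, a sensor of Z-form nucleic acid, had one across its end, 15 bases from the centre. Nlrx1, an NLR protein of mitochondria, had one across its start, at 56 bases. Il17c, an epithelial interleukin 17, had one 318 bases before its start, and Il17rb, which encodes an interleukin 17 receptor, had one across its 3′ end, 53 bases from the centre. Stfa3, a stefin gene, had one 254 bases before its start, and Ubd, which encodes a ubiquitin-like protein induced by cytokines, one 625 bases before it. Zc3h12a, which encodes an RNase that degrades inflammatory messages, had one 2375 bases inside its start.

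Of the other lists, the androgen receptor and its response genes had 1 of 34, Elk4, an ETS factor gene, with a region 384 bases inside its start. The AP-1 and immediate early list had 1 of 22, Dusp1, a phosphatase of MAP kinases, 346 bases before its start. Housekeeping genes had 2 of 18, Rpl13a and Actb. No gene of the cell cycle list (0 of 33) or the Notch, Wnt and stem cell list (0 of 35) had one, with exact upper limits of 10.6% and 10.0%. Of the cell types that the sort should leave out or that could accompany it, T cell markers had 1 of 20 (Cd5, 2202 bases before its start), fibroblast and smooth muscle markers 1 of 18 (Acta2, 907 bases inside its start), and myeloid or pan-leukocyte markers 0 of 22 and endothelial markers 0 of 16 (exact upper limits 15.4% and 20.6%). For wide regions the counts were 3 for the androgen list, 0 for AP-1, 1 for housekeeping, 1 for the cell cycle, 3 for Notch, Wnt and stem cell genes, 2 for T cells, 1 for fibroblasts and smooth muscle, and 0 for myeloid and endothelial markers. The lists were written with earlier results of these data known, so their shares are no independent support. Over all 17 lists, 21 of 428 genes counted once (4.91%) had a narrow region and 24 (5.61%) a wide region. Among all protein-coding genes the shares were 1.69% and 3.34%. For each list without a narrow region the upper limit lay above 1.69%, so a count of 0 could not be told from that share. Per list the numbers are too small to tell one list from another.

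**Figure D3:**
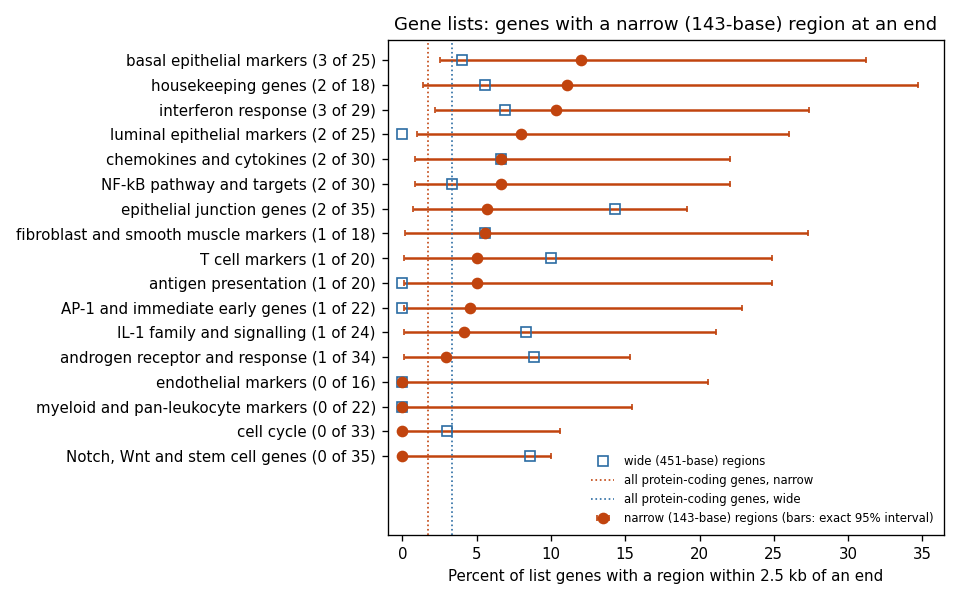
Percent of each list's genes with a narrow region within 2.5 kb of an end (red, with exact 95% intervals) and with a wide region (blue squares); dotted lines give 1.69% and 3.34%, the shares of all protein-coding genes. The lists hold 16 to 35 genes, and the intervals of the narrow shares overlap each other.

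At 3′ ends the closest regions lay at genes of varied function. Met, the receptor for hepatocyte growth factor, ended 47 bases from the centre of its region on chromosome 6 (17573862 to 17574004). Opa1, which encodes a fusion protein of the inner mitochondrial membrane, ended 48 bases from the centre. With Il17rb, these were the 3 regions that held a nearest 3′ end. Myh1, a skeletal muscle myosin gene, Cdsn and Osbpl2, a lipid-binding protein gene, followed at 98, 102 and 133 bases. Outside the gene lay 53 of the 94 and inside it 41. Of the 261 regions within 2.5 kb of at least 1 gene end of known strand, 94 (36.0%) were near 3′ ends only, 144 near starts only and 23 near both. For the wide regions, 54 of 512 (10.5%) were near 3′ ends only.

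Several genes carried more than 1 of the regions. There were 16 such genes of 369, and 18 genes had a region within 2.5 kb of both ends, 12 of them because the gene is so short that 1 region reaches both. These short genes were Il17c, Ifitm6, Cldn3, Eif1, Mrpl54, Mfsd5, Dnase1l2, Noxo1, Pate1 and Tmem256, with 2 predicted genes. Different regions marked the 2 ends of Pglyrp3, Klhl17, Lipm, Cttnbp2nl, Pcare and Cecr2, of which Lipm encodes a lipase of keratinocytes. Srsf2, a splicing factor gene, had one region 62 bases before its start and another 524 bases inside. Hoxb9, a homeobox gene, had them 164 bases outside and 512 bases inside one end. Sh2d4b had 2 before its start, at 485 and 1103 bases, and Rab32, Col15a1, Pfdn1, Mfsd11 and BC052040 each had 2 around one end.

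A further narrow region within 10 kb was found for 40 of 323 (12.4%). Among wide regions at gene ends, 39 of 657 (5.94%) had a neighbour of their own width (Fisher's exact test, odds ratio 2.24, 95% interval 1.37 to 3.66, adjusted p = 8.9e-04). Among narrow regions elsewhere the share was 14.1% (407 of 2887), which could not be told from gene ends (Fisher's exact test, p = 0.45, odds ratio 0.861, 95% interval 0.593 to 1.23). The closest pair was at Sqstm1, the autophagy receptor p62, at 0.297 kb. Il1rn had its neighbour 4.85 kb away, inside the gene. With neighbours counted out to 50 kb, the shares of the widths at gene ends were 36.5% and 30.9% and the call was lost (Fisher's exact test, adjusted p = 0.082).

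The chromosomes that held the widths differed. Chromosome 11 held 53 of the 323 regions (16.4%), against 8 of 657 wide regions at gene ends (1.22%) and 7.35% of protein-coding genes (Fisher's exact test between the widths, adjusted p = 5.1e-18 over 20 chromosomes). Chromosomes 17 and 19 held 5.26% and 5.88%, against 0.761% and 1.37% (Fisher's exact test, adjusted p = 1.1e-04 and 5.8e-04). Chromosome 7 held 8.05% against 3.81% (Fisher's exact test, adjusted p = 0.029). On chromosomes 17, 19 and 7 lay 4.84%, 3.22% and 9.275% of protein-coding genes. The narrow share of chromosome 17 was thus near its gene share, and that of chromosome 7 was below it. The call for chromosome 7 was lost with 1 region per 1 Mb (5.93% and 4.84%, Fisher's exact test, adjusted p = 0.78). Chromosome 13 held a single narrow region at a gene end, 1472 bases inside the 3′ end of the giant receptor gene Adgrv1, against 67 wide regions (Fisher's exact test, adjusted p = 2.6e-10). Chromosome X held none, against 47 (Fisher's exact test, adjusted p = 4.5e-08). Chromosomes 13 and X hold 3.79% and 4.41% of protein-coding genes, and 10.2% and 7.15% of the wide regions at gene ends. The chromosomes were compared after the earlier contrast of widths over the whole list was known, so this is no independent support for that contrast.

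Gene ends differed in this from the other narrow regions too. Of the 2887 elsewhere, 5.82% lay on chromosome 11 and 4.57% on chromosome 13, against 16.4% and 0.310% at gene ends (Fisher's exact test, adjusted p = 6.7e-09 and 2.1e-04). For chromosomes 7, 17, 19 and X this second comparison did not pass (Fisher's exact test, adjusted p = 0.11, 0.43, 0.14 and 0.12). A median of 21 protein-coding gene spans began within 500 kb of a narrow region at a gene end (quartiles 12 and 33), against 8 (5 and 12) for wide regions at gene ends. The genes themselves were shorter, with a median span of 18.9 kb against 37.6 kb, while the median of all protein-coding genes was 17.2 kb. With chromosomes 11, 13, 17, 19 and X left out, a start was nearest for 58.4% of narrow and 87.9% of wide regions (Fisher's exact test, adjusted p = 4.4e-14).

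**Figure D4:**
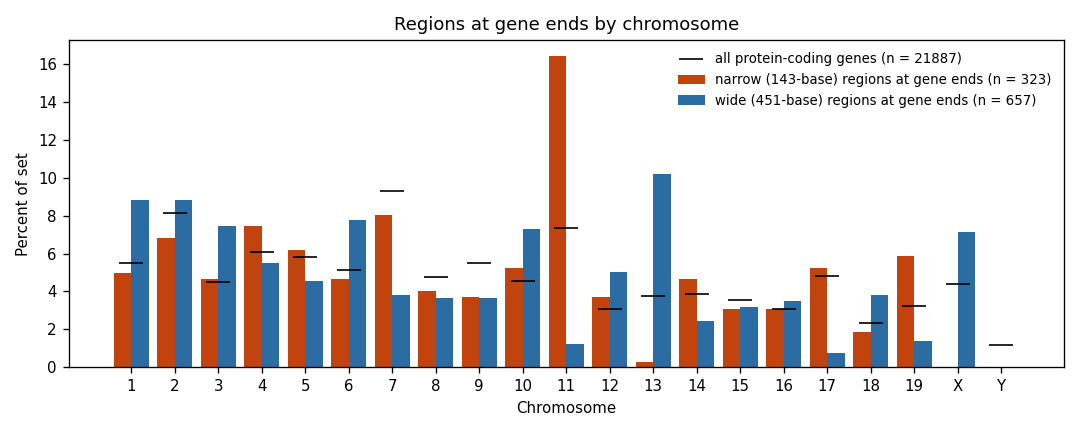
Percent of narrow regions (red) and wide regions (blue) at gene ends that lie on each chromosome, with the share of all protein-coding genes as black marks. Chromosome 11 holds 16.4% of the narrow and 1.22% of the wide regions, and chromosomes 13 and X show the opposite order.

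Promoter sequence was at hand for 65 of the 323 regions, those with 100 or more of their bases inside a RefSeq promoter window (250 bases before to 50 after a start); 45 lay in it whole. CpG content was measured as the ratio of observed CpG to that expected from the C and G content of the 300-base window. The median ratio was 0.796 for the 65 windows, 0.790 for 342 windows that hold wide regions and 0.577 for all 17492 protein-coding windows. A ratio of 0.6 or more was found for 51 of 65 (78.5%), for 78.4% of the wide windows and for 48.4% of all. At the other side, 11 of the 65 (16.9%) were below 0.4, against 24 of 342 (7.02%) for the wide regions and 39.1% of all, a split that was chosen after the values were seen and was not tested.

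These 11 CpG-poor promoters were those of Tnip3, Il1rn, Oit1, C3, Cd200r3, Pglyrp1, Slc39a2, Nlrx1, Lpar5, Cldn3 and 1 predicted gene. Tnip3 had no CpG in its 300-base window and Il1rn had a ratio of 0.0457. Among the 51 CpG-rich ones were Rpl13a with a ratio of 1.00, Srsf2 with 1.08, Polr2e with 1.02, Sumo2 with 0.963, Rpl27a with 0.931 and Eif1 with 0.873. Tbx20 with 0.745, Dner with 0.68, Birc5 with 0.764 and Kctd11 with 0.706 were among them too. How widely each gene is used was not measured, and its relation to CpG content was not tested. Oit1, Lpar5 and Cldn3, printed above with few capitals, had ratios of 0.133, 0.304 and 0.353.

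**Figure D5:**
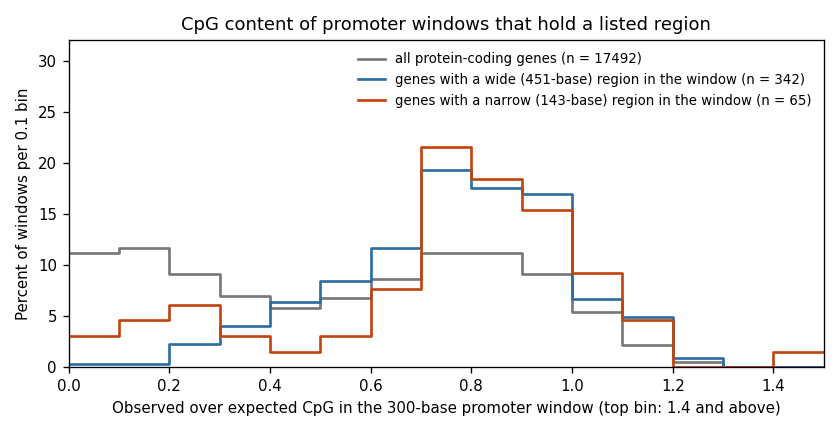
Observed over expected CpG in 300-base promoter windows, as percent of windows per bin of 0.1, for windows that hold 100 or more bases of a narrow region (red, n = 65) or a wide region (blue, n = 342) and for all protein-coding genes (grey, n = 17492). Both region sets peak between 0.7 and 0.8, and the narrow set has a second, lower group below 0.4.

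In all, 18 short motifs were searched on both strands in the part of each of the 65 regions that lies in the window. Of these, 10 were above their share in the same stretches of all genes, some by little. The 10 include TEAD (6.154%, same stretches 6.125%), FOX (1 match, 1.54% and 1.24%) and ETS (9.23% and 6.53%). The AP-1 motif TGANTCA was in 7 of 65 (10.8%, exact 95% interval 4.44 to 20.9): Il1rn, Actn4, Eif1, Blmh, Kctd11, Mfsd11 and Qars. Over the same stretches of all 17492 windows the share was 3.26%. In whole windows it was 13.8% for the narrow regions, 3.80% for the wide regions and 7.03% for all genes. The grainyhead motif AACCNGTT was in 4 (6.15%; same stretches 0.839%): Il1rn, Actn4, Nlrx1 and 1 predicted gene. In whole windows it was in 6.15% for narrow regions, 1.75% for wide regions and 1.96% for all genes. Il1rn and Actn4, printed above, held both.

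The NF-kB motif was in 3 of 65 (4.62%; same stretches 2.07%): Tnip3, Pglyrp1 and Birc5, which encodes survivin. In whole windows its share was 4.62% for narrow regions, 5.26% for wide regions and 4.57% for all genes. The GC box GGGCGG was in 35 (53.8%; same stretches 32.6%) and the CCAAT box CCAAT in 15 (23.1%; same stretches 23.3%). In whole windows the GC box was in 73.8% for narrow regions, 74.3% for wide regions and 46.3% for all genes, and the CCAAT box in 32.3%, 37.1% and 39.2%. Among windows with a CpG ratio of 0.6 or more, the GC box was in 84.3% for narrow regions and 74.1% for all genes. The androgen receptor core motif AGAACA was in 3 (4.62%; same stretches 7.31%), those of Eif1, Lpar5 and Nlrx1, and in 12.3% of whole windows for narrow regions, 9.94% for wide regions and 16.4% for all genes. The TATA box TATAAA was in 3 (C3, Srsf2 and Tnip3; 4.62%, same stretches 6.58%). The IRF motif GAAANNGAA and the p53 family and CTCF motifs had no match in the 65 stretches, where all genes had 3.51%, 0.676% and 0.438%. In whole windows the IRF motif was in 6 of 65 (9.23%), against 3.80% for wide regions and 8.24% for all genes. The p53 family and CTCF motifs were in 1.54% each for narrow regions, 0.292% and 1.46% for wide regions, and 1.57% and 0.880% for all genes. The E-box CACGTG was in 9.23% (same stretches 4.03%) and the STAT motif TTCNNNGAA in 7.69% (3.41%). The CRE motif TGACGTCA was in 3.08% (1.37%) and the RUNX motif TGTGGT in 1.54% (6.93%). In whole windows these 4 motifs were in 12.3%, 7.69%, 3.08% and 10.8% for narrow regions. For wide regions the shares were 9.36%, 5.56%, 4.09% and 9.06%, and for all genes 7.91%, 7.78%, 2.33% and 15.1%. A match is a description of letters and not a bound site, and 65 stretches give wide intervals.

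The limit of 2.5 kb cut through a thin, even spread of regions. Just inside it lay those of Ggh, Csrp2, Wwc1 and Rnf217 at 2.42, 2.43, 2.47 and 2.48 kb, with 1 of a predicted gene. Just outside lay those of Vps37b, Sema4f, Akap1, Dpt and Gemin8 at 2.52 to 2.57 kb.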

How the data were processed

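Per the submitters' processing notes, the authors' tools were edgeR, HOMER 4.8, SAMtools and BWA 0.7.17-r1188, with build mm10. Their order, thresholds and pooling are not given in the sources used here. The deposited list gives chromosome, start and end, with starts counted from 0 (printed from 1), and its values are positions only. Narrow regions are 143 bases wide and wide ones 451; 1 region of another width was not used.

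Gene spans came from RefSeq (GRCm38.p6, 21887 protein-coding genes on chromosomes 1 to 19, X and Y). Strand came from RefSeq promoter sequences, which covered 17492 of these genes and none on chromosome 18. The start is the 5′ end of the span; promoter windows are set on the start in the promoter table, which can differ from it. Each region was placed by its centre. Shares were compared by two-sided Fisher's exact tests, adjusted by Benjamini-Hochberg over 5 shares or 20 chromosomes, which treat regions as independent. Intervals are Clopper-Pearson. The code was checked on simulated data.

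Regions, gene lists and tests were chosen with earlier results of these data known. Genes were named by a rule: Il1rn, genes with 2 or more regions, up to 6 list genes per list, the 20 starts nearest to a centre, genes with both ends marked, and those beside the limit. Other names were chosen after positions were seen. Python 3.11.15 and scipy 1.17.1 were used. Alternatives were other windows, gene sets, chromosomes and thinning.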

Additional observations from a re-analysis of the deposited data

How the results depend on the processing

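No paired analysis was possible because regions came without values for single libraries, so no replicate could be left out either. The shares at starts and inside genes kept their direction and passed Fisher's exact test in all 10 and 9 alternatives, with differences of -29.5 to -13.9 and -25.2 to -15.7 percentage points. The share across gene ends passed in 7 of 8, and fell short with a 1 kb window (-3.68 points, adjusted p = 0.40). The share near 2 or more genes fell short with a 1 kb window (4.32 points), 1 region per 1 Mb (0.730), the 5 chromosomes left out (2.35) and gene-dense surroundings only (2.17), and with all annotated genes it turned to -2.23 points (adjusted p = 0.33). The neighbour share fell short at 1 kb (2.74 points) and with neighbours within 50 kb (5.63), and against narrow regions elsewhere it was -1.71 points. Against those, chromosomes 7, 17, 19 and X differed by 3.27, 1.35, 2.38 and -1.42 points and did not pass; with 1 region per 1 Mb, 5 of 20 chromosomes passed, against 6, and chromosome 7 did not (1.09 points). By construction the windows moved the counts: 177 regions and 201 genes at 1 kb, 519 and 618 at 5 kb, 589 and 704 with all annotated genes, against 323 and 369, and 13 list genes at 1 kb against 21. In the motif search, 10 of 18 motifs were above their share in all genes. The cause of the other changes was not tested. The comparisons against narrow regions elsewhere, by chromosome, by gene density, at starts only and by CpG content were chosen after seeing the data. Strand was unknown for the nearest gene of 71 regions.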

Other observations

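Some regions lay near the starts of 2 genes on opposite strands. Of the 323 regions, 18 lay within 2.5 kb of the starts of 2 genes on opposite strands. In 3 cases both starts were within 76 bases of the centre: Chtf8 and Utp4 (11 and 58 bases), which encode a factor of sister chromatid cohesion and a ribosome assembly factor, Ssh2 and Efcab5 (13 and 57 bases), and Tcam1 and Smarcd2 (54 and 76 bases), the last a subunit of chromatin remodelling complexes. Other pairs were Dnajc8 and Atpif1 (69 and 178 bases) and Sdf4 and B3galt6 (153 and 318 bases). The 18 also include wider pairs, such as Rpl27a and Trim66 (96 and 2340 bases) and Ecd and Fam149b (1986 and 2023 bases). Narrow regions at gene ends had a median of 21 genes within 500 kb, against 8 for wide ones. The count of such pairs was not taken for wide regions or for all gene starts, so it is a description.

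A few genes had a region of each width. There were 5 with both within 2.5 kb of an end, 1.36% of the 369 genes with a narrow region and 0.684% of the 731 with a wide region. Of all protein-coding genes, 3.34% had a wide and 1.69% a narrow region. Whether the overlap differs from what these shares would give was not tested. At the 5 genes (Pgap1, Cep20, Mthfs, Ggh and BC052040), the wide region was the closer of the pair in each case. It lay at 29 to 844 bases, against 384 to 2419 bases for the narrow region.

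A microRNA hairpin lay within 2.5 kb of 5 of the regions: Mir5126 beside Dner, Mir5100 beside Mief2, Mir6924 beside Kctd11, Mir7658 beside Klhl17 and Mir5121 beside Rpl13a. No such count is given here for wide regions or for other gene ends, so this is a description only.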
